A study of Homo sapiens with 6 samples.

Results

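Cyclins, the cyclin-dependent kinases (CDKs) they activate and the CDK inhibitors were followed in SUM159 cells, a triple negative BC line, with stable lentiviral overexpression of miR-1287-5p and in control cells transduced with an empty vector. Members were all rows of the array table whose gene symbol has the form of a cyclin (CCN, a letter and a number), a CDK (CDK and a number) or an inhibitor (CDKN1 to CDKN3), with the row of the highest mean signal standing for a symbol. This gave 35 gene symbols, out of 14884 symbols on the array table, and 36 transcript clusters out of 53617, since both rows of CCND2 were kept. Each group had 3 biological replicates with 1 Affymetrix Human Gene 2.0 ST array each, all from 1 cell line in the same medium, and the deposited values are log2 signals. Both groups carried a GFP vector and were kept under puromycin selection. Whether the transduced cells of a group are a pool or a single clone is not given in the sources used here. An array of a culture reads the mean over all its cells, so fewer cells in a cell cycle phase and less RNA per cell cannot be told apart.

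Cells enter the cycle when D-type cyclins bind CDK4 and CDK6 and start the phosphorylation of the retinoblastoma protein, which holds back E2F transcription factors. Cyclin E with CDK2 then drives entry into S phase, cyclin A acts through S phase and G2, and cyclin B with CDK1 drives mitosis. The INK4 inhibitors (CDKN2 genes) block CDK4 and CDK6, and the CIP/KIP inhibitors (CDKN1 genes) act on cyclin-CDK complexes more widely. Another branch of the family, with cyclins T and L and CDK7, CDK8, CDK9, CDK12, CDK13 and CDK19, works on RNA polymerase II and on splicing. MiRNAs pair with target mRNAs mainly through their seed. Since the study also looked at cell cycle phases of these cells, the array comparison bears on the question which of these regulators differ in mRNA.

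The overexpressed miRNA is shown first because it is what separates the groups, with its seed (bases 2 to 8) in capitals, as RefSeq gives it on the minus strand of chr10:98395271-98395292 (GRCh38.p14). It is followed by promoter windows of both mitotic B-type cyclins measured at high signal, with the motif CCAAT in capitals, on the plus strand at chr5:69167050-69167109 for CCNB1 and chr15:59105016-59105105 for CCNB2 (GRCh38.p14, RefSeq). Each window ends 41 bases before the annotated start.
hsa-miR-1287-5p: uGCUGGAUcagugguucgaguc
CCNB1: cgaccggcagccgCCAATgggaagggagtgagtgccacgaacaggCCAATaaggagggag
CCNB2: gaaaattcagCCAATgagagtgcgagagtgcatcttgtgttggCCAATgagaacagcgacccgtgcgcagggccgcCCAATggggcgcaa
In the CCNB1 window 2 copies of CCAAT start 32 bases apart, and in the CCNB2 window 3 copies follow each other at 33 and 33 bases. RefSeq promoters (250 bases before to 50 after the start) were matched for 31 of 35 members, not for CCND1 or CCND2. CCAAT on either strand was found in at least 1 promoter of 14 of 31 members. Counted by promoter, it was in 20 of 47 member promoters (42.6%) and in 34.6% of all 35116 promoters. A pair of CCAAT starting 30 to 35 bases apart, a spacing chosen after these sequences were seen, was found in 3 members (CCNB1, CCNB2 and CDK1). Such a pair was in 6.38% of these member promoters and in 1.26% of all promoters. A match describes these letters only.

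The label was checked against marker genes. All 5 measured genes of a list for mesenchymal-like triple negative lines (VIM, CD44, ZEB1, EGFR and AXL) had a mean signal above 4.37 (the median over every transcript cluster), in a range of 6.46 to 11.41 in overexpressing cells and 6.40 to 11.28 in control cells. The epithelial and luminal list (6 measured genes) ranged from 3.56 to 6.66 in overexpressing cells and from 3.70 to 6.6 in control cells, with 3 of its genes (the receptor genes ESR1 and PGR, and EPCAM) below that median and GATA3 at the upper end of the range, and PECAM1 and ALB of other cell types were below it too. The 3 control arrays lay far from each other, with control replicate 1 at −41.5 and control replicate 2 at 60.6 on the first principal component, and the 3 overexpression arrays lay between them. This spread touches many members and is described with them below.

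Of the 35 members, 34 had a mean signal above 4.37, so most were measured in the brighter part of the arrays. The exception was CDKN2A. Differences were tested per row with limma, two-sided, with p-values adjusted by Benjamini and Hochberg's method across the whole table and a threshold of 0.05. For CCND2 an exact permutation test over the arrays was added, whose smallest two-sided p is 0.1. No member passed the adjusted threshold in limma, where 2 transcript clusters in all (0.00373%) passed. At an unadjusted p under 0.05, 1 member (CCND2) was lower and 0 were higher, against 2.44% of all transcript clusters lower and 2.96% higher. CCND2 was also the only member whose groups did not overlap, so that 1 of 35 was lower in every overexpression array and 0 higher, against 4.33% and 6.88% of all transcript clusters. Shares of members this near the background are no result about the family as a whole. The log2 fold change was below 0 in 26 of 35 members (74.3%), with a median of −0.12, also without CCND2. This median was −0.28 without control replicate 1, −0.056 without control replicate 2, −0.066 without control replicate 3 and −0.058 without overexpression replicate 3. Over all transcript clusters 44.5% were below 0 with a median of 0.029, and over the 10348 brighter genes with a symbol 50.5% were below 0 with a median of −0.0032.

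**Figure D1:**
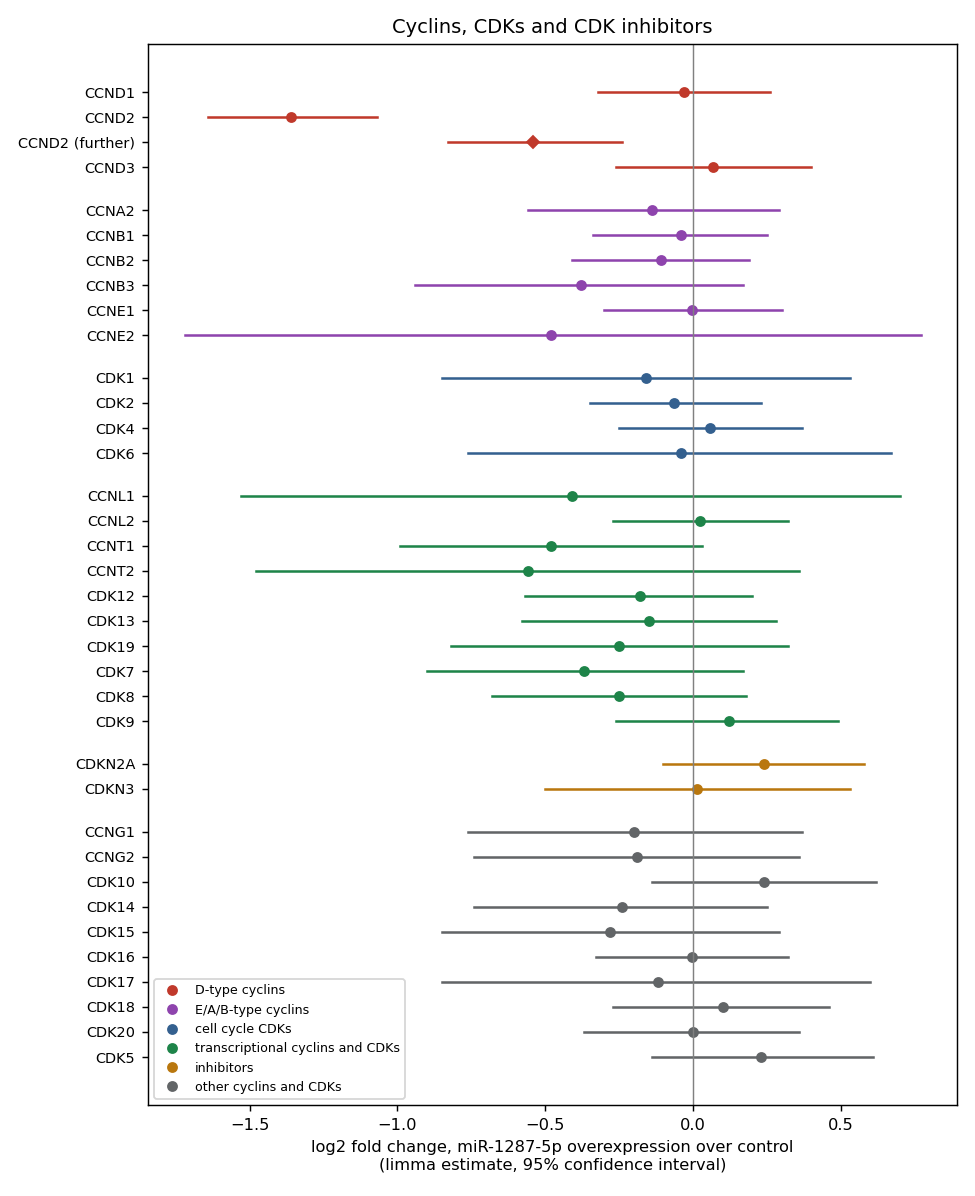
Log2 fold change of each member, miR-1287-5p overexpression over control, on the x axis with the 95% confidence interval from limma, ordered by class from top to bottom. Dots stand for symbols and the diamond for the further row of CCND2. Only the intervals of the CCND2 rows do not cross 0, and CCNE2, CCNL1 and CCNT2 have the widest intervals.

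Among the D-type cyclins, CCND2 differed between the groups while CCND1 and CCND3 had values close together. CCND2 (cyclin D2, transcript cluster 16746992), a G1 cyclin that activates CDK4 and CDK6, had a log2 signal of 4.87, 4.79 and 4.70 in the overexpression arrays, against 6.12, 6.20 and 6.12 in the control arrays. All overexpression arrays lay below all control arrays by more than 1 log2 unit, and the spread within each group was small. The overexpression arrays averaged 4.79 ± 0.082 and the control arrays 6.14 ± 0.046 (SD, n = 3 each). The log2 fold change was −1.36 (standard error 0.12, 95% interval −1.64 to −1.07), or 2.56-fold lower. The overexpression mean was not far above 4.37, the median over every transcript cluster, which limits how exactly the size of this change can be read. In limma the unadjusted p of CCND2, 7.38e-06, ranked 4 of all transcript clusters, and its adjusted p was 0.0887, over the threshold. The exact permutation test gave p = 0.1, the smallest it can give. CCND2 stands on the study's list of lower genes chosen on the same arrays, so its direction is not independent evidence. It passed in limma with dim transcript clusters left out (adjusted p = 0.048), after restriction to named ones (0.0323) and under array weights (0.0117). CCND2 did not pass in any other setting tried. There its adjusted p in limma ran from 0.0791 with cyclic loess normalization to 0.947 with the replicate number as a block.

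The further CCND2 row (transcript cluster 16760142) had 4.14, 4.27 and 4.25 in the overexpression arrays, against 4.78, 4.86 and 4.64 in the control arrays. Again no array of one group reached the other, at a level near the array median. The log2 fold change was −0.54 (standard error 0.13, 95% interval −0.83 to −0.24, unadjusted p = 0.00354 and adjusted p = 0.814 in limma). Whether both rows read the same strand was not determined, so the further row is not counted as a second measurement of CCND2 mRNA. CCND2 lies on chromosome 12, where RefSeq also lists an antisense lncRNA across its start. Of the named neighbours of the main row in ID order that lie on chromosome 12 with a strand in RefSeq, 18 of 19 are on the plus strand, and of those of the further row 19 of 21 are on the minus strand. The mean of both rows, which may mix strands, had a log2 fold change of −0.95.

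CCND1 (cyclin D1), the D-type cyclin most often amplified in BC, was measured at 9.53, 9.51 and 9.37 in the overexpression arrays, against 9.55, 9.52 and 9.44 in the control arrays. The groups overlapped and the difference was smaller than the spread within either group. Its log2 fold change was −0.032 (95% interval −0.32 to 0.26, adjusted p = 0.966 in limma). CCND3 (cyclin D3) was measured at 6.18, 6.32 and 6.39 in the overexpression arrays, against 6.31, 6.05 and 6.33 in the control arrays. These values overlapped as well, with a log2 fold change of 0.069 (95% interval −0.26 to 0.40, adjusted p = 0.934 in limma). Both intervals leave room for changes of up to 0.32 in CCND1 and 0.40 in CCND3.

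The difference between CCND2 and its paralogs was then followed within each array, which takes out any offset that an array adds to both genes. The log2 signal of CCND2 minus that of CCND1 was −4.66, −4.72 and −4.66 in the overexpression arrays, against −3.43, −3.33 and −3.32 in the control arrays. All 3 overexpression arrays lay below all 3 control arrays, by 1.32 on average. CCND2 minus CCND3 was −1.31, −1.53 and −1.69 in the overexpression arrays, against −0.19, 0.15 and −0.21 in the control arrays. Here too the groups were apart, by −1.43 on average. CCND1 minus CCND3 averaged 3.17 in overexpressing cells and 3.27 in control cells, and these groups overlapped. These differences describe the same values of CCND2 again, since it alone was apart, and they carry no test of their own. Levels of different genes cannot be ranked by these differences, since each row has its own probes.

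**Figure D2:**
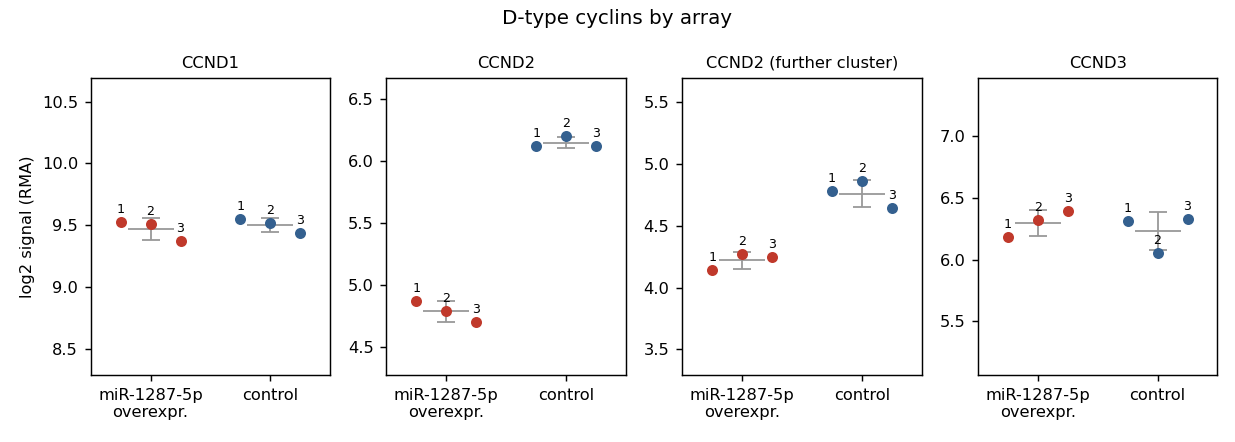
Log2 signal (y axis) of the D-type cyclins in each array, with miR-1287-5p overexpression in red on the left and control in blue on the right. Numbers name the replicate, the long bars the mean and the error bars 1 SD (n = 3), and every panel spans the same height in log2 units. The CCND2 groups are apart in both rows that carry its symbol (4.70 to 4.87 against 6.12 to 6.20 in the main row). Whether the further row reads the same strand was not determined. The groups of CCND1 and CCND3 overlap.

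The cyclins of S phase and mitosis were measured in 6 of 7 genes (CCNA1 is unnamed here), and none passed the test. All 6 log2 fold changes were below 0, from −0.48 in CCNE2 to −0.0024 in CCNE1, with a median of −0.12. The median was −0.21 without control replicate 1 or without overexpression replicate 1, −0.071 without control replicate 2 and −0.062 without overexpression replicate 3. CCNE1 (cyclin E1), which activates CDK2 at the start of S phase, had 7.74, 7.84 and 7.87 in the overexpression arrays, against 7.86, 7.68 and 7.90 in the control arrays. CCNE2 (cyclin E2), its close relative, had 6.93, 6.41 and 5.83 in the overexpression arrays, against 5.66, 7.76 and 7.17 in the control arrays. The CCNE2 values spread over more than 2 log2 units among the control arrays alone, and all overexpression values lay inside that spread. The 95% interval of its fold change was wide, from −1.72 to 0.77. Its log2 fold change was −1.08 without control replicate 1 and −0.028 without control replicate 2. It was −0.75 without overexpression replicate 1 and −0.20 without overexpression replicate 3.

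CCNA2 (cyclin A2), which works with CDK2 and CDK1, was measured at 10.87, 10.54 and 10.47 in the overexpression arrays, against 10.51, 11 and 10.78 in the control arrays (log2 fold change −0.14). The mitotic cyclin CCNB1 was measured at 10.25, 10.05 and 10.09 in the overexpression arrays, against 10.18, 10.11 and 10.23 in the control arrays (log2 fold change −0.042, 95% interval −0.34 to 0.25). CCNB2, which shares the paired CCAAT motifs with CCNB1, had 9.2, 9.08 and 9.01 in the overexpression arrays, against 9.10, 9.22 and 9.30 in the control arrays (log2 fold change −0.11, 95% interval −0.41 to 0.19). In these 3 genes the groups overlapped and no array stood far from the rest. CCNB3, a cyclin known mainly from meiosis, had 7.37, 6.98 and 7.06 in the overexpression arrays, against 7.09, 7.97 and 7.49 in the control arrays. Its highest value was that of control replicate 2, and its log2 fold change was −0.38 (95% interval −0.94 to 0.17, adjusted p = 0.871 in limma).

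The kinases that these cyclins activate were measured in 4 of 5 genes (CDK3 is unnamed here), with a median log2 fold change of −0.053. CDK4, a partner of the D-type cyclins, had 10.84, 11.02 and 11.06 in the overexpression arrays, against 11.01, 10.82 and 10.92 in the control arrays. CDK6, the other partner, had 7.44, 7.36 and 7.02 in the overexpression arrays, against 6.64, 7.88 and 7.43 in the control arrays. Neither differed beyond the spread between arrays, with log2 fold changes of 0.057 (95% interval −0.25 to 0.37) for CDK4 and −0.042 (−0.76 to 0.67) for CDK6. CDK2, the partner of cyclins E and A, had 9.82, 9.90 and 9.88 in the overexpression arrays, against 9.99, 9.82 and 9.99 in the control arrays (log2 fold change −0.063). CDK1, the mitotic kinase, had 8.55, 8.60 and 8.25 in the overexpression arrays, against 8.06, 9.26 and 8.55 in the control arrays (log2 fold change −0.16, 95% interval −0.85 to 0.53). CDK1 and CDK6 shared an order, with control replicate 1 lowest, control replicate 2 highest and the overexpression arrays between them. CDK2 and CDK4, in contrast, had their lowest value in control replicate 2.

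Only 2 of 8 inhibitors on the list had a named row here, and CDKN1A, CDKN1B, CDKN1C, CDKN2B, CDKN2C and CDKN2D are unnamed, so that the CIP/KIP genes were not analyzed here. CDKN2A, which encodes the INK4 protein p16 and the p53 pathway protein ARF, had 4.52, 4.32 and 4.23 in the overexpression arrays, against 4.0, 4.28 and 4.08 in the control arrays. These values lie around the median of all transcript clusters and overlap between the groups by a narrow margin. The log2 fold change was 0.24 (95% interval −0.10 to 0.58, adjusted p = 0.871 in limma), the highest of all members. CDKN3, a phosphatase that removes the activating phosphate of CDK2, had 9.59, 9.33 and 9.38 in the overexpression arrays, against 8.98, 9.81 and 9.48 in the control arrays. Its log2 fold change was 0.013, and control replicates 1 and 2 were again the lowest and the highest array.

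All 10 transcriptional cyclins and CDKs whose symbols have the form used here were measured, and none passed the test. Their median log2 fold change was −0.25, the lowest of the 6 classes, and 8 of 10 were below 0. The lowest was CCNT2 (cyclin T2), a partner of CDK9 in the elongation factor P-TEFb, at −0.56. CCNT2 had 5.57, 5.68 and 5.20 in the overexpression arrays, against 5.14, 6.80 and 6.20 in the control arrays, so that control replicate 1 was below every overexpression array. The highest was CDK9 itself, at 0.12. Between them lay CCNT1 (−0.48, unadjusted p = 0.0617 in limma), the splicing-associated cyclins CCNL1 (−0.41) and CCNL2 (0.024), the TFIIH kinase CDK7 (−0.37), the Mediator kinases CDK8 (−0.25) and CDK19 (−0.25), and the elongation kinases CDK12 (−0.18) and CDK13 (−0.15). The members of P-TEFb thus had values in both directions, with none beyond the spread of the arrays. CCNC, CCNH, CCNK and CDK11A do not have this symbol form and were counted in the lists read below. Their log2 fold changes were −0.32 (CCNC), −0.37 (CCNH), 0.021 (CCNK) and −0.16 (CDK11A), with groups that overlapped.

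Another 10 symbols matched the form of the family without a place in these classes. They were the p53-linked CCNG1 and its relative CCNG2, the neuronal kinase CDK5, and CDK10, CDK14, CDK15, CDK16, CDK17, CDK18 and CDK20. Their log2 fold changes ran from −0.28 (CDK15) to 0.24 (CDK10) with a median of −0.064, and 7 of 10 were below 0. Control replicate 3 alone was high for CDK15, at 7.66, against 6.69 and 6.98 in the other control arrays and 6.86, 6.74 and 6.88 in the overexpression arrays. None of the 10 had groups apart or an unadjusted p under 0.05 in limma.

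The arrays behind these values shared a pattern. Control replicate 2 was the highest of the 6 arrays in 19 of 35 members (54.3%), against 24.1% of all genes with a symbol and 29.8% of the brighter ones. Control replicate 1 was the lowest in 12 members (34.3%), against 16.2% and 17.3%. Both held together in 10 members (28.6%), against 9.14% and 11.9%. Control replicate 2 was also the lowest array in 8 members (22.9%), against 32.6% and 35.7%. Overexpression replicate 3 was the lowest in 9 members (25.7%), against 17.0% and 19.2%. All 3 overexpression arrays lay inside the range of the control arrays in 14 members (40.0%), against 25.7% and 28.1%. The control arrays spanned more than 1 log2 unit in 6 members, CCNE2, CCNL1, CCNT2, CDK1, CDK6 and CDK17, and in 1375 of 14884 genes with a symbol. The median span of the members was 0.288 in the overexpression arrays and 0.446 in the control arrays, beside 0.31 and 0.372 over all genes with a symbol. These are descriptions of members that share the same 6 arrays, and the part of this pattern in the fold changes was not tested.

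**Figure D3:**
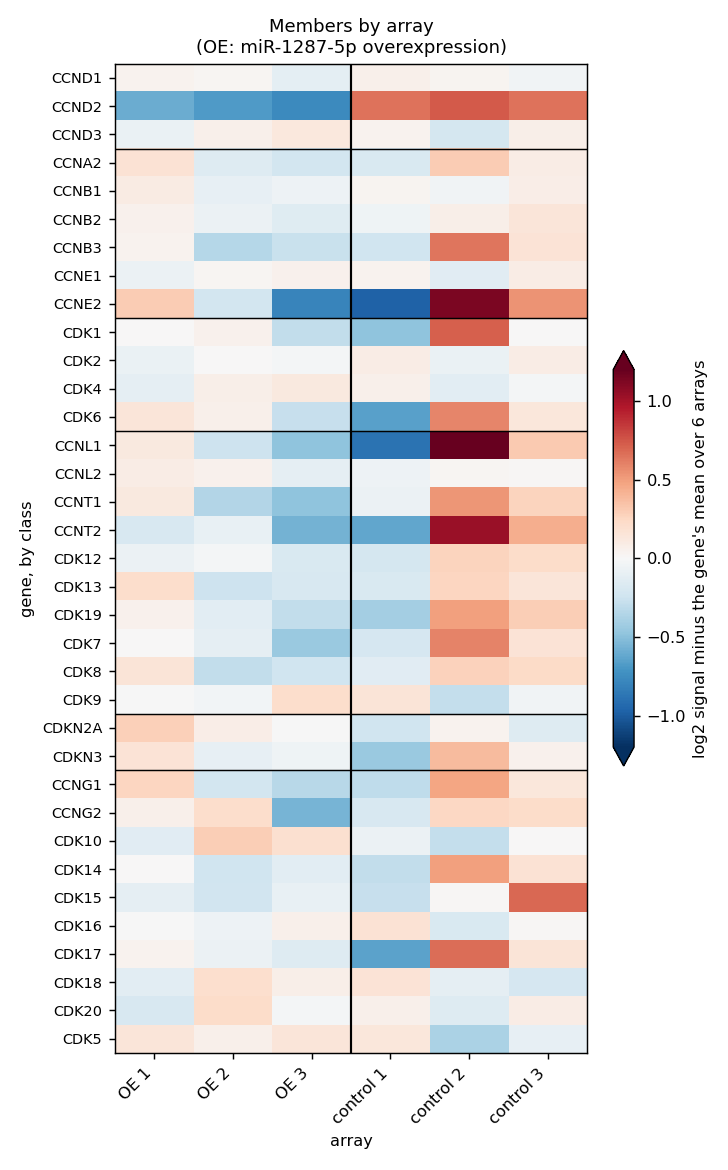
Log2 signal minus the gene's mean over the 6 arrays (color scale) for the 35 members in rows, by class, with the miR-1287-5p overexpression (OE) arrays left of the black line and the control arrays right of it. CCND2 is the only row whose color splits at the line. Control replicate 2 holds the highest value in 19 rows and the lowest in 8, and control replicate 1 the lowest in 12.

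The pattern was then read by class. Among the transcriptional genes, the median deviation of the 10 members from each gene's mean was 0.07, −0.12 and −0.27 in the overexpression arrays, against −0.19, 0.39 and 0.22 in the control arrays. Control replicate 2 was the highest array in 8 of these 10 genes. The cell cycle CDKs had medians of −0.036, 0.06 and −0.15 in the overexpression arrays, against −0.21, 0.25 and 0.047 in the control arrays. The D-type cyclins had medians of −0.08, 0.027 and −0.12 in the overexpression arrays, against 0.06, 0.037 and 0.069 in the control arrays, which lay close together. These medians over 3 genes do not show the difference in CCND2. Over all genes with a symbol the same medians stayed between −0.063 and 0.022.

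Because of these arrays, each array was left out in turn. Without control replicate 1, 11 of 35 members (31.4%) had an unadjusted p under 0.05 in limma, all lower, against 12.9% of all transcript clusters. They were CCNB3, CCND2, CCNE2, CCNL1, CCNT1, CCNT2, CDK7, CDK12, CDK14, CDK17 and CDK19, and the groups were apart in 17 members (48.6%, 15 lower and 2 higher), against 33.4% of all. No member passed the adjusted threshold in that fit (0 of all transcript clusters did), and the lowest adjusted p apart from that of CCND2 was 0.351. Without control replicate 2, CCND2 alone had an unadjusted p under 0.05, against 4.32% of all transcript clusters. The groups were then apart in 3 members (8.57%), CCND2, CDK2 and CDKN2A, a share below the 18.4% of all transcript clusters. CCND2 kept its log2 fold change between −1.40 and −1.31 whichever array was left out, with an adjusted p of 0.337 to 0.793 in limma. The median of the transcriptional class was −0.45 without control replicate 1 and −0.083 without control replicate 2, so that these control arrays move it by more than 1.5 times in opposite directions. The median of the cell cycle CDKs was −0.21 without control replicate 1 and 0.087 without control replicate 2.

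**Figure D4:**
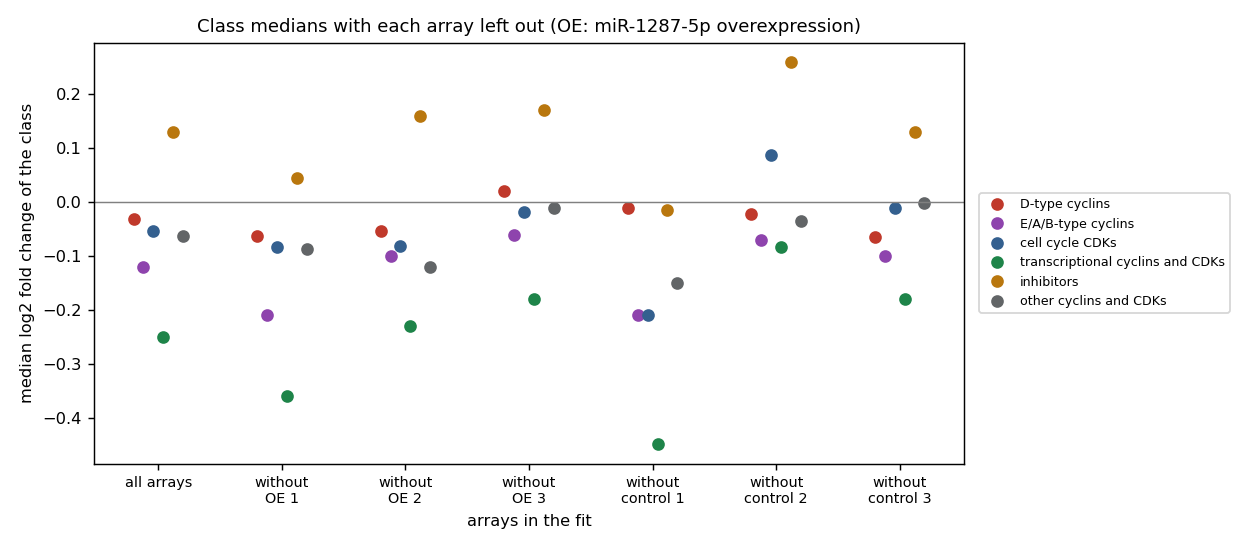
Median log2 fold change of each class (y axis), miR-1287-5p overexpression over control, with all arrays and with each array left out (x axis; OE: overexpression), 1 colored dot per class. The transcriptional class moves between −0.45 without control replicate 1 and −0.083 without control replicate 2, while the D-type median stays between −0.065 and 0.02. The D-type class has 3 genes, so its median does not show CCND2 at −1.36. The median of the cell cycle CDKs runs from −0.21 to 0.087 and that of the inhibitors from −0.015 to 0.26.

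Genes that act on cyclins and CDKs were read beside them from 5 lists with 87 genes, of which 66 were measured and 21 are unnamed here. None of the 66 passed the adjusted threshold in limma, while at an unadjusted p under 0.05 there were 4 lower and 3 higher genes of 66, beside 2.44% lower and 2.96% higher over the whole table. The median log2 fold change was −0.037. The retinoblastoma, E2F and DREAM list had 1 lower of 16 measured genes, the turnover list 2 lower and 1 higher of 12, the list of upstream transcription regulators 1 lower and 2 higher of 13. The CDK phosphatases, kinases and subunits (13) and the cyclins outside the naming form (12) had 0. The adjusted p of the 7 genes ran from 0.817 to 0.871 in limma, and in each of them the groups did not overlap. Over the whole 66 the groups were apart in 5 lower and 3 higher genes, beside 4.33% and 6.88% of all transcript clusters, and the gene beyond the 7 was TFDP2 (log2 fold change −0.29, unadjusted p = 0.0511 in limma). With each array left out in turn, USP28 and FOXO1 kept an unadjusted p under 0.05 throughout (at most 0.0241 and 0.0377 in limma), and SKP1, KLF4, E2F7, USP2 and ETS2 did not. The 7 genes were picked by p on these same arrays, so neither their separation nor these p-values are independent evidence.

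Among the turnover genes, USP28, a deubiquitinase that acts on MYC and opposes FBXW7, had 7.13, 7.06 and 6.80 in the overexpression arrays, against 7.51, 7.68 and 7.46 in the control arrays (log2 fold change −0.55, unadjusted p = 0.00637 in limma). SKP1, the adaptor of the SCF ubiquitin ligases that degrade cyclin E and p27, had 4.83, 4.63 and 5.12 in the overexpression arrays, against 5.36, 5.23 and 5.58 in the control arrays (log2 fold change −0.53, unadjusted p = 0.0176 in limma). USP2, a deubiquitinase that stabilizes cyclin D1, had 6.36, 6.41 and 6.62 in the overexpression arrays, against 6.20, 5.93 and 6.07 in the control arrays (log2 fold change 0.40, unadjusted p = 0.0253 in limma). This value belongs to the brightest USP2 row, and the mean of all its rows had a log2 fold change of 0.11 (unadjusted p = 0.535 in limma). USP28 and SKP1 were thus on the lower side and USP2 on the higher side, none past the adjusted threshold.

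Among the transcription regulators, FOXO1, a forkhead factor held in check by AKT, had 7.97, 8.18 and 7.90 in the overexpression arrays, against 7.63, 7.52 and 7.48 in the control arrays (log2 fold change 0.47, unadjusted p = 0.00949 in limma). KLF4, a zinc finger factor known to activate CDKN1A, had 6.62, 6.6 and 6.70 in the overexpression arrays, against 6.30, 6.18 and 6.34 in the control arrays (log2 fold change 0.37, unadjusted p = 0.0183 in limma). Both were higher in every overexpression array than in any control array. E2F7, an atypical E2F that represses E2F targets, had 9.53, 9.35 and 9.19 in the overexpression arrays, against 9.65, 9.94 and 9.78 in the control arrays (log2 fold change −0.43, unadjusted p = 0.0225 in limma). ETS2, an ETS family factor downstream of RAS signaling, had 9.97, 10 and 9.98 in the overexpression arrays, against 10.28, 10.23 and 10.29 in the control arrays (log2 fold change −0.28, unadjusted p = 0.0425 in limma). Of these 7 genes, ETS2 spread least, by 0.03 in the overexpression arrays and 0.06 in the control arrays.

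**Figure D5:**
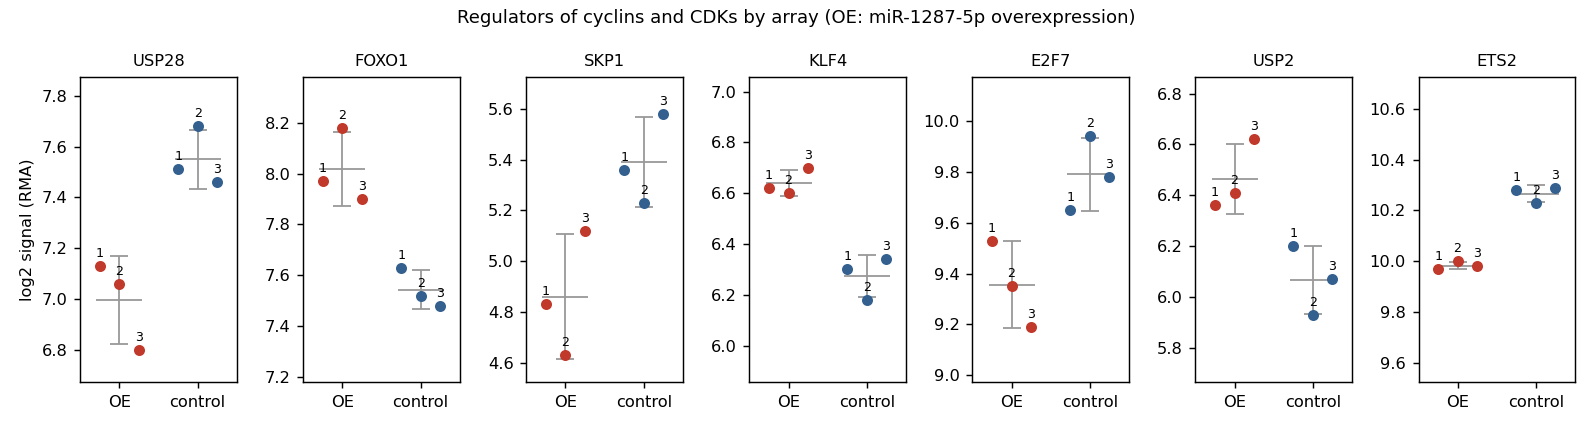
Log2 signal (y axis) in each array of the 7 regulators with an unadjusted p under 0.05, with miR-1287-5p overexpression (OE) in red on the left and control in blue on the right. Numbers name the replicate, long bars the mean and error bars 1 SD (n = 3), and every panel spans the same height in log2 units. The groups are apart in all 7 panels, with FOXO1, KLF4 and USP2 higher and USP28, SKP1, E2F7 and ETS2 lower in overexpressing cells. The genes were picked by this p on the same arrays, so their separation is not independent evidence.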

How the data were processed

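The arrays of 3 miR-1287-5p overexpressing and 3 control SUM159 replicates were processed by the authors, whose deposited log2 values are RMA summaries from Partek Genomics Suite 6.6, quantile normalized over the chips and median polished to transcript clusters after background correction. Symbols came from the platform annotation, which names 16098 of 53617 transcript clusters, and 37519 are unnamed here. Names and promoters came from RefSeq (GRCh38.p14). Groups were taken from the labels. The limma p-values set the group difference against the spread between these replicates, moderated by that of all transcript clusters. Whether the replicates of a group come from separate transductions is not given in the sources used here. The values were compared in R 4.3.3 with limma 3.58.1 (two-sided, lmFit then eBayes, Benjamini-Hochberg adjusted p under 0.05 across the table), in a script tested on simulated data, and CCND2 also with an exact permutation test in scipy 1.17.1. Values in every array are given for the D-type and E/A/B-type cyclins, CDK1, CDK2, CDK4, CDK6, the inhibitors, members with an unadjusted p under 0.05 or groups apart, and pathway genes with an unadjusted p under 0.05 (at most 8). CCNT2 and CDK15 were added as the lowest of their classes, and CCNT1 was named, after their values were seen. The alternatives were an intensity trend, the methods' t-test, a replicate block, centred medians, cyclic loess, a filter on dim transcript clusters, named ones only, array weights, the mean of a symbol's rows, and each array left out. The members, lists and tests were chosen with earlier results of these data known.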

Additional observations from a re-analysis of the deposited data

How the results depend on the processing

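Apart from leaving out arrays, 313 of 322 member values over 9 alternatives kept their direction and side of the threshold. With dim transcript clusters left out, only named ones, and array weights, 1 member (CCND2) passed the adjusted threshold in limma in place of 0, at log2 fold changes of −1.36 (adjusted p = 0.048), −1.36 (0.0323) and −1.33 (0.0117). CCND2 stayed above it in the other alternatives, its adjusted p lying between 0.0117 and 0.947 over them all. Array weights also raised the members at an unadjusted p under 0.05 to 9, against 22.1% of all transcript clusters, gave control replicate 3 a weight of 7.91, and turned CCND1 to 0.028, CCND3 to −0.018 and CDKN3 to −0.044. Centring the array medians turned CCNL2 to −0.0012 and CDKN3 to −0.013, and cyclic loess turned CDKN3 to −0.00063. The cause was not tested.

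With each array left out, 193 of 216 member values kept their direction and side. Between 1 and 11 members had an unadjusted p under 0.05, and between 1 and 17 had groups apart. Without overexpression replicate 1 these were 2 members (5.71%) and 9 members (25.7%), near the 5.67% and 23.4% of all transcript clusters. The log2 fold changes that changed sign ranged from −0.065 to 0.02 in CCND1, −0.023 to 0.13 in CCND3, −0.069 to 0.04 in CCNE1, −0.34 to 0.045 in CCNG2, −0.96 to 0.076 in CCNL1, −0.013 to 0.083 in CCNL2, −0.44 to 0.16 in CDK1, −0.094 to 0.082 in CDK16, −0.48 to 0.18 in CDK17, −0.11 to 0.10 in CDK20, −0.38 to 0.24 in CDK6 and −0.21 to 0.21 in CDKN3. Fits with 2 arrays in a group take their spread from both groups.

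Over all transcript clusters, 2 were called in the fit on all arrays, 25 with array weights, 5 with dim ones left out, 3 with named ones, 3 with an intensity trend, 1 with cyclic loess and 0 with the methods' t-test. With the replicate block 0 were called, and CCND2 kept −1.36 at an adjusted p of 0.947. Whether the numbers pair the arrays is not given in the sources used here. Same-numbered arrays had deviations correlated at −0.473, −0.00175 and −0.0809, and differently numbered ones at −0.441 to 0.466. So few arrays cannot decide this. CDKN2A has no value with dim transcript clusters left out. The 3 arrays per group limit every interval, values near 4.37 are dim, and 6 of 8 inhibitors were not analyzed here.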
